A study of Mus musculus with 6 samples.

Results

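The genes described here are 8 that sense oxygen for the hypoxia-inducible factors (HIFs) or that help these factors switch on transcription: Egln1, Egln2, Egln3, Vhl, Hif1an, Cited2, Ep300 and Crebbp. They were chosen by name as parts of this pathway. Of the 45101 probe sets on the arrays, 17 named 1 of these genes alone, and 0 named 1 of them together with another gene. For each gene the probe set with the highest mean over the 6 arrays stood for it, and the 9 others served as a check. All 8 genes passed the filter on dim probe sets and were tested among 12279 genes.

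The arrays measured RNA of endothelial cells, the lining of blood vessels, isolated from mouse lungs and kept for 16 h at 0.5% oxygen. In 3 arrays the cells carried the Hif-2a knockout. Per the labels, these cells came from VE-Cadherin-Cre mice with both Hif-2a copies floxed, and this Cre is driven by the promoter of an endothelial cadherin. The other 3 arrays held control cells, which the labels describe in 3 ways: as VE-Cadherin-Cre with 1 floxed and 1 wild-type copy, as floxed/floxed, and as wild type. All cells were selected repeatedly with endothelial markers. Hypoxia was shared by every array, so the comparison is of genotypes at low oxygen and holds no response to oxygen itself. Whether replicate arrays stand for separate cultures or mice is not said in the labels, so the p-values reflect only how far these arrays spread.

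Cells degrade the alpha subunits of HIF when oxygen is present. The EGLN enzymes, also called PHDs, use oxygen to hydroxylate prolines of HIF-alpha, and VHL, the substrate receptor of a ubiquitin ligase, recognises the hydroxylated protein. HIF1AN, also called FIH, hydroxylates an asparagine in the transactivation domain of HIF-alpha, which blocks its contact with the paired coactivators p300 (Ep300) and CBP (Crebbp), and CITED2 competes with HIF-alpha for the same domain of these coactivators. Several of these genes, among them Egln1, Egln3 and Cited2, are known HIF targets, so the pathway holds feedback loops.

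The bright probe set of Epas1, which encodes HIF-2α, read 8920, 9397 and 9859 intensity units in knockout arrays 1 to 3, against 9611, 9590 and 9444 in control arrays 1 to 3. The groups overlapped and limma gave adjusted p = 0.753, so this signal does not check the genotype, which rests on the labels here; the position of these probes against the deleted part was not used. Directions below are therefore those of the arrays labelled knockout. A dimmer Epas1 probe set, near the floor signal of 16 units, read 21.7, 18.0 and 11.5 units in knockout arrays. In control arrays it gave 11.4, 10.3 and 11.4 units (log2 difference 0.28 ± 0.13, SE, limma adjusted p = 0.254 over probe sets). Controls 1 and 3 were nearly alike: the SD of their log2 difference over all genes was 0.14, against 0.31 to 0.68 for the other within-group pairs. For Crebbp and for each call among the 8 genes and the pathway lists, the result with these 2 arrays averaged into 1 sample is therefore given too. By the same SD over all genes, knockout 3 was nearer to controls 1 to 3 (0.52, 0.58 and 0.54) than to knockout 2 (0.68). It was nearest to knockout 1 (0.47). All 10 endothelial markers were above the floor signal of 16 units, and 4 of them fell in knockout arrays, where limma called 5.07% of all genes as lower. The summed signal of the 10 markers was 96757 to 111695 units in knockout arrays and 123919 to 138590 in control arrays. The endothelial marker Vwf was dim (40.8 ± 7.40 units in knockout arrays and 49.3 ± 17.6 in control arrays, SD, n = 3 each). Of 7 leukocyte markers measured, Cd68 and Cd14 had signal and both fell. The leukocyte sum was 804 to 1191 units in knockout arrays and 3843 to 4506 in control arrays, while Ptprc, Itgam, Csf1r, Lyz2 and Cd3e were at the floor. All 8 mural and fibroblast markers, all 7 epithelial markers and both lymphatic markers, Prox1 and Pdpn, were at the floor in both groups.

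The stretches of DNA just before the starts of these genes give the context of the comparison, since HIF dimers are known to bind DNA at a core of ACGTG or GCGTG. Sequences are from RefSeq on build GRCm38.p6, and the 250 bases before the annotated start were searched on both strands for both motifs, with matches that share letters counted each. Shown are Cited2 and Ep300, the genes that passed the test, and Egln1 and Egln3, enzymes known as HIF targets. Each is written 5′ to 3′ on the strand of its gene, with every motif match in capitals. Cited2 lies at chr10:17722978-17723227 (plus strand), Ep300 at chr15:81585964-81586213 (plus strand), Egln1 at chr8:124949255-124949504 (minus strand) and Egln3 at chr12:54203875-54204124 (minus strand).
Cited2: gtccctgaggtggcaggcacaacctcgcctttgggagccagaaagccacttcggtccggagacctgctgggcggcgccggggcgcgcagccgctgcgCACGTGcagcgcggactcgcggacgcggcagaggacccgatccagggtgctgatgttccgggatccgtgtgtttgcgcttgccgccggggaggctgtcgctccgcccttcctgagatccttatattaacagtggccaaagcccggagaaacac
Ep300: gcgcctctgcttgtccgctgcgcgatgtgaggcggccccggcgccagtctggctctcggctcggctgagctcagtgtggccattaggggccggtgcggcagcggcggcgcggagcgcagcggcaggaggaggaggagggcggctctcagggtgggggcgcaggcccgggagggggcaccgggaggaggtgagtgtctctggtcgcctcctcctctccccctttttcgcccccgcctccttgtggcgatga
Egln1: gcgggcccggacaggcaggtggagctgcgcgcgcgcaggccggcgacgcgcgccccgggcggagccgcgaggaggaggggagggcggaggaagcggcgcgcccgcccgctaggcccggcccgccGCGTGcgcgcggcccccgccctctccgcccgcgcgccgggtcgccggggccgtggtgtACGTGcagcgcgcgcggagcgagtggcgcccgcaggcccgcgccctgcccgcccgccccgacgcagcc
Egln3: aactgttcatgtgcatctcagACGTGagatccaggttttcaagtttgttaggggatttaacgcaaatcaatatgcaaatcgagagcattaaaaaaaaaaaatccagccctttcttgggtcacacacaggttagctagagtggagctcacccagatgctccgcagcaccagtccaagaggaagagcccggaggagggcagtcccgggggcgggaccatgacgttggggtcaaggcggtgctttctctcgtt

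Cited2 held ACGTG once on each strand, the matches overlapping in a palindrome 148 to 153 bases before the start. Egln1 had GCGTG at 122 to 126 bases and ACGTG at 64 to 68 bases before its start. Egln3 had 1 ACGTG at 225 to 229 bases before its start, and Ep300 had no match in this window. Among the genes not shown, Egln2 had 4 matches before its first annotated start and 1 before its second, and Vhl, Hif1an and Crebbp had none. So 4 of the 8 genes held a match before their first listed start. Over all 32851 promoter entries, 16.6% held ACGTG, 28.2% GCGTG and 38.6% either of them. A match is a description of these letters only.

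Ep300 fell by 17.7% and Cited2 fell by 16.6% in the knockout arrays, and 0 of the 8 genes rose. The other 6, namely Egln1, Egln2, Egln3, Vhl, Hif1an and Crebbp, did not pass limma's test at an adjusted p of 0.05. Of all 12279 genes, 13.7% passed this test in either direction, 5.07% as lower and 8.64% as higher. Genes that passed were higher in 63.0% of cases, against 40.4% with the level of the array spike-ins as a covariate and 49.2% with controls 1 and 3 averaged. Limma's unadjusted p was under 0.05 for 4 of the 8, against 32.4% of all genes. The median log2 difference, knockout minus control, was -0.18 over the 8 genes and 0.0071 over all genes. In 4 of the 8, namely Egln3, Cited2, Ep300 and Crebbp, every knockout array was lower than every control array. Over all genes the groups did not overlap in 36.2%, and in 12.8% with the knockout arrays lower.

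**Figure D1:**
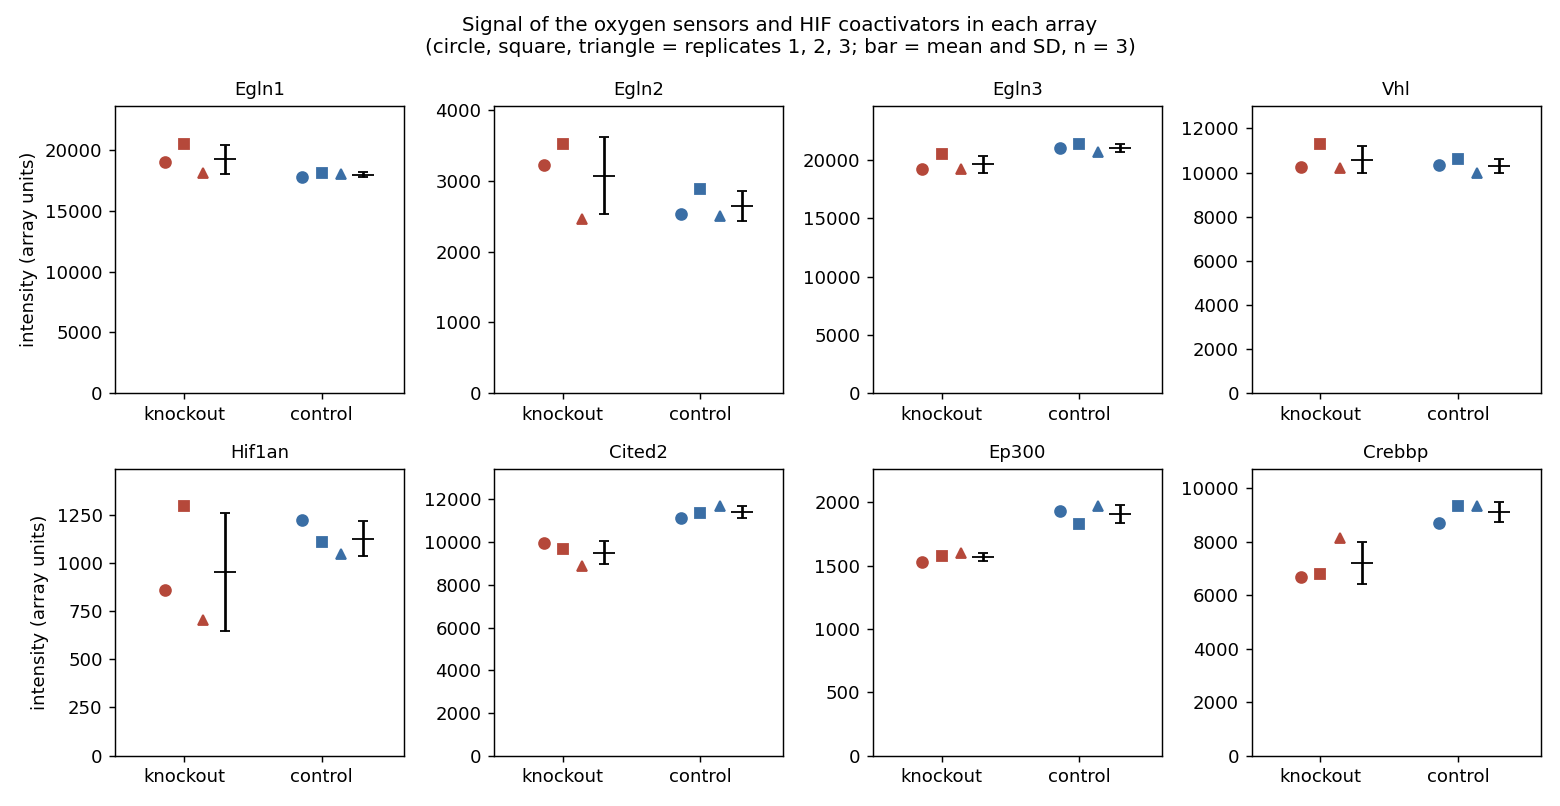
Signal of each of the 8 genes in each array, in intensity units on a linear axis from 0, with knockout arrays in red on the left and control arrays in blue on the right, and the mean and SD of 3 arrays beside them. The knockout arrays lie below all control arrays for Egln3, Cited2, Ep300 and Crebbp. Every gene but Ep300 spreads more among knockout arrays than among control arrays. Relative to a gene's level, the knockout spread is widest for Hif1an and Egln2 (highest over lowest array 1.84 and 1.43).

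Ep300 encodes p300, a histone acetyltransferase that bridges many transcription factors to the transcription machinery. It read 1529.7, 1573 and 1595 units in knockout arrays 1 to 3, against 1929, 1826 and 1969 units in control arrays 1 to 3. The groups were well apart, as the highest array was 1.04 times the lowest among knockout arrays and 1.08 times among control arrays. The means were 1566 ± 33.3 units in knockout arrays and 1908 ± 73.4 in control arrays (SD, n = 3 each). Ep300 fell by 0.28 ± 0.04 on the log2 scale (SE, limma adjusted p = 0.0175, 95% interval -0.38 to -0.19) and ranked 538 of 12279 genes by its p. It has no second probe set on these arrays. The call depended on single arrays: limma's adjusted p was 0.0893 without control 1, 0.0749 without control 3, 0.0763 without knockout 1 and 0.0509 without knockout 2, and 0.0802 with controls 1 and 3 averaged. Over the 22 alternatives the difference ran from -0.33 to -0.22, and it passed in 13 of them.

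Cited2 encodes a small protein without a DNA-binding domain that occupies the site of p300 and CBP to which HIF-alpha binds. Its bright probe set read 9942, 9694 and 8906 units in knockout arrays 1 to 3, against 11130.1, 11387 and 11689 units in control arrays 1 to 3. All knockout arrays were lower than all control arrays, and knockout 3 was the lowest. Means were 9514 ± 541 units in knockout arrays and 11402 ± 279.8 in control arrays (SD, n = 3 each). Cited2 fell by 0.26 ± 0.05 on the log2 scale (SE, limma adjusted p = 0.0388, 95% interval -0.39 to -0.13). A dimmer probe set gave 990.5, 1017 and 734 units in knockout arrays, against 969.6, 1186 and 1056 units in control arrays. Its groups overlapped, and it did not pass (log2 difference -0.23 ± 0.16, SE, limma adjusted p = 0.413 over probe sets). The Cited2 call was the less stable one: it passed in 8 of 22 alternatives, and of the 6 that leave out 1 array, only without knockout 3. The limma adjusted p was 0.127 with controls 1 and 3 averaged, and without single arrays it ran from 0.0276 to 0.144. With the mean of its probe sets in place of the brightest, Cited2 did not pass (log2 difference -0.25, limma adjusted p = 0.174).

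Crebbp encodes CBP, the close relative of p300. Its brightest probe set read 6698, 6792 and 8123 units in knockout arrays 1 to 3, against 8691, 9327 and 9333 units in control arrays 1 to 3. The groups did not overlap, and knockout 3 lay closest to the control arrays. With means of 7204 ± 797 units in knockout arrays and 9117 ± 369 in control arrays (SD, n = 3 each), the log2 difference was -0.34 ± 0.09 (SE, 95% interval -0.58 to -0.11) and did not pass (limma adjusted p = 0.0721). It passed in 4 of 22 alternatives. Among them was the mean of its probe sets in place of the brightest (log2 difference -0.58, limma adjusted p = 0.0351). Without knockout 3 it was -0.43 and passed (limma adjusted p = 0.0181), and without each of the other 5 arrays it did not (limma adjusted p = 0.156 to 0.227). Nor did it pass with controls 1 and 3 averaged (limma adjusted p = 0.189) or with the spike-in covariate (log2 difference -0.24, limma adjusted p = 0.341).

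The 3 other Crebbp probe sets were lower in the knockout arrays as well. The probe set 1436983_at read 1592, 1576 and 1639 units in knockout arrays, against 2233, 2428 and 2469 units in control arrays. It fell by 0.56 ± 0.05 on the log2 scale (SE, limma adjusted p = 0.0111 over probe sets, and 0.0342 with controls 1 and 3 averaged), the smallest p among the 17 probe sets of these genes. Of the 9 probe sets that did not stand for a gene it was the 1 that passed, where 7.65% of all 27023 probe sets tested passed, 3.19% as lower. It lost its call without control 3 (limma adjusted p = 0.0619) or knockout 1 (0.0583) and kept it without each of the other 4 arrays. The probe set 1434633_at read 1209, 1156 and 1393 units in knockout arrays, against 1441, 1567 and 1539 units in control arrays (log2 difference -0.28 ± 0.08, SE, limma adjusted p = 0.125 over probe sets). The dimmest, 1459804_at, gave 284, 141 and 126 units in knockout arrays and 290.1, 508 and 425 units in control arrays (log2 difference -1.13 ± 0.38, SE, limma adjusted p = 0.155 over probe sets). In none of the 4 did the groups overlap, although for 1459804_at knockout 1 and control 1 were close. The 4 differences ranged from -1.13 to -0.28, so the probe sets gave 1 direction and different sizes. Over all 17 probe sets of the 8 genes, the groups did not overlap in 7, all lower in knockout arrays, against 31.2% of all probe sets in either direction and 12.1% as lower. The 4 Crebbp probe sets are among these 7, and as measures of 1 gene they do not count as separate genes.

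**Figure D2:**
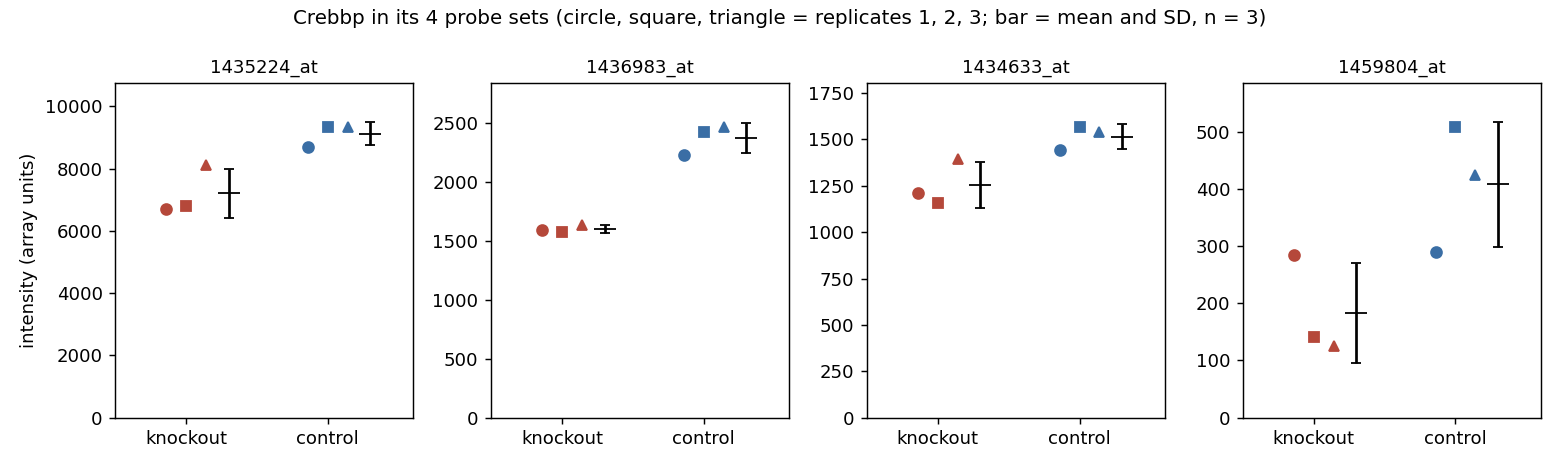
Signal of the 4 Crebbp probe sets in each array, in intensity units on a linear axis from 0, with knockout arrays in red on the left, control arrays in blue on the right, and the mean and SD of 3 arrays. All 3 knockout arrays lie below all 3 control arrays in each probe set, and the spread within groups is smallest relative to the gap in 1436983_at.

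None of the 3 EGLN genes passed the test. Egln1 encodes PHD2, the enzyme that sets HIF-alpha levels in most cells. Its bright probe set read 19029, 20517 and 18106 units in knockout arrays 1 to 3, against 17758, 18128.5 and 18015 units in control arrays 1 to 3. Knockout 3 lay within the range of the controls, and the other knockout arrays were higher. Its log2 difference was 0.10 ± 0.05 (SE, 95% interval -0.04 to 0.23) and did not pass (limma adjusted p = 0.276). The second Egln1 probe set gave 7277 to 9629 units in knockout arrays and 7618 to 9096 in control arrays, with a log2 difference of 0.04 ± 0.13 (SE).

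Egln2 encodes PHD1, a family member found mainly in the nucleus. It read 3226, 3524 and 2467 units in knockout arrays 1 to 3, against 2531, 2882 and 2508 units in control arrays 1 to 3. Here knockout 3 was the lowest of all 6 arrays and the other knockout arrays were the highest. The log2 difference of 0.20 ± 0.15 (SE, 95% interval -0.20 to 0.61) did not pass (limma adjusted p = 0.427). It was 0.35 without knockout 3 (limma adjusted p = 0.0606) and 0.098 without knockout 2 (limma adjusted p = 0.789), and did not pass without any of the other 4 arrays (limma adjusted p = 0.380 to 0.694). With the level of the array spike-ins as a covariate it was -0.16, against 0.20 without it, and neither value passed. Mean spike-in signals were 10.56 to 10.81 on the log2 scale in knockout arrays and 10.36 to 10.59 in control arrays.

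Egln3 encodes PHD3, which is strongly induced by low oxygen in many cell types. Its bright probe set gave 19252, 20499 and 19232 units in knockout arrays 1 to 3, against 21051, 21417 and 20672 units in control arrays 1 to 3. The groups did not overlap, but knockout 2 and control 3 were close. The log2 difference was -0.10 ± 0.03 (SE, 95% interval -0.19 to -0.0092) and did not pass over all genes (limma adjusted p = 0.129). The second Egln3 probe set read 6267, 7857 and 6456 units in knockout arrays and 7487, 7516 and 7619 units in control arrays. There knockout 2 was the highest array and the other knockout arrays the lowest, and the log2 difference was -0.14 ± 0.10 (SE, limma adjusted p = 0.408 over probe sets).

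Vhl, whose protein marks hydroxylated HIF-alpha for degradation, was nearly even between the groups. It read 10258, 11307 and 10202 units in knockout arrays 1 to 3, against 10345, 10599.5 and 9961 units in control arrays 1 to 3. The arrays overlapped, and the log2 difference was 0.04 ± 0.05 (SE, 95% interval -0.10 to 0.18, limma adjusted p = 0.684). Its dim probe set gave 115 to 157 units in knockout arrays and 88.1 to 124 in control arrays, and a log2 difference at 0.29 ± 0.17 (SE, limma adjusted p = 0.342 over probe sets).

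Hif1an, the asparagine hydroxylase that gates the contact of HIF-alpha with p300 and CBP, varied most among the knockout arrays relative to its level. It read 857, 1294 and 704 units in knockout arrays 1 to 3, against 1223, 1105 and 1048 units in control arrays 1 to 3. Knockout 2 was the highest of the 6 arrays and the other knockout arrays were the lowest, so the highest knockout array was 1.84 times the lowest, against 1.17 times among control arrays. The log2 difference was -0.28 ± 0.24 (SE, 95% interval -0.92 to 0.35, limma adjusted p = 0.486). Single arrays moved it: it was -0.52 without knockout 2 (limma adjusted p = 0.0903) and -0.092 without knockout 3 (limma adjusted p = 0.803). Of the other Hif1an probe sets, 1 read 20.8 to 40.8 units in knockout arrays and 21.2 to 46.7 in control arrays, and 1 was at the floor in all arrays.

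**Figure D3:**
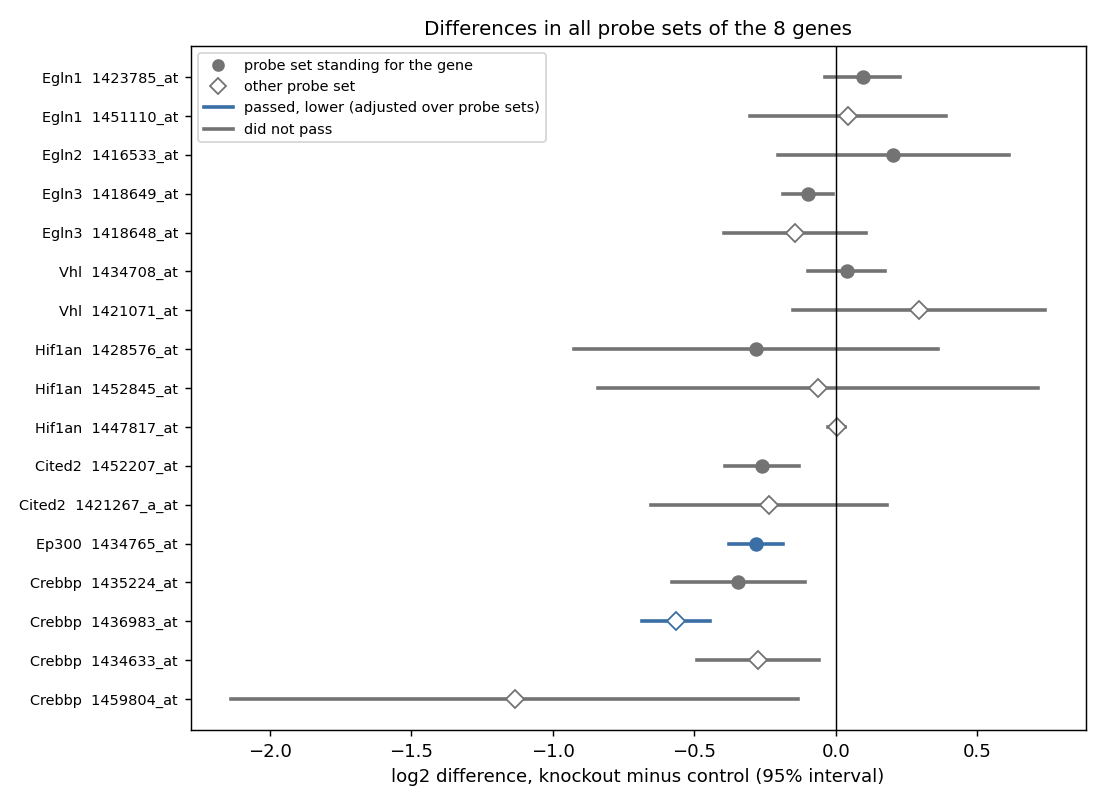
Log2 difference, knockout minus control, with its 95% interval for the 17 probe sets of the 8 genes, filled circles for the probe set that stands for a gene and open diamonds for the others. Blue marks the 2 that passed when p-values were adjusted over all probe sets, Ep300 and the Crebbp probe set 1436983_at; Cited2 passed over genes (limma adjusted p = 0.0388) but not over probe sets (0.0521).

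The profiles of the 8 genes over the 6 arrays were compared by the root mean square difference of log2 values, each centred on its own mean. Values were not scaled to each gene's spread, so genes that vary little over the arrays lie close whatever their pattern. Egln1 and Vhl were the closest pair (0.043), followed by Egln3 and Vhl (0.072), Cited2 and Ep300 (0.072) and Ep300 and Crebbp (0.097). Hif1an was farther from each of the other 7 genes (0.24 to 0.34) than these pairs. The tested genes nearest to Ep300 were Tmcc3, a transmembrane coiled-coil protein (0.022), Cd47, a surface protein that restrains phagocytosis (0.027), and Ndfip1, an adaptor of ubiquitin ligases (0.029). Tmcc3 read 1428, 1421 and 1456 units in knockout arrays, against 1751, 1722 and 1820.4 units in control arrays. Nearest to Cited2 were Tob1, an antiproliferative factor (0.026), Tomm7, a subunit of the mitochondrial import pore (0.027), and Dennd5a, an exchange factor for Rab proteins (0.029). Such profiles were common: 362 of the other 12278 genes lay within 0.1 of Ep300 and 398 within 0.1 of Cited2.

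Other genes of the pathway were described from 3 lists. The ubiquitin ligase and degradation genes that work with VHL did not pass: limma called 0 of 13 tested, with 3 at an unadjusted p under 0.05, against 13.7% of all genes called. Among the 13, Rbx1 was at the floor in all arrays (7.6 to 8.7 units), so its result says nothing of a change, and 12 were above the floor. The smallest p belonged to Ube2d2a, a ubiquitin-conjugating enzyme (log2 difference -0.12 ± 0.03, limma adjusted p = 0.0698). Elob and Eloc, the elongins that link VHL to its cullin, had log2 differences of 0.10 ± 0.03 and 0.18 ± 0.06 (limma adjusted p = 0.122 and adjusted p = 0.125). The median log2 difference of this list was -0.11.

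Of 12 tested regulators and relatives of the sensors, 2 rose and 10 did not pass, with a median log2 difference of 0.07. Limma thus called 16.7% of those tested, near the 13.7% of all genes called (8.64% as higher). P4htm, a membrane-bound prolyl hydroxylase related to the EGLN enzymes, read 108, 131 and 94.0 units in knockout arrays, against 14.0, 21.7 and 15.5 units in control arrays. It rose by 1.94 ± 0.15 on the log2 scale (SE, limma adjusted p = 0.00609), and passed in all 22 alternatives, with controls 1 and 3 averaged among them (limma adjusted p = 0.0446). As 2 control arrays lay under the floor signal of 16, this difference rests on the pseudocount and is no fold. Ado, a thiol dioxygenase known as an oxygen sensor for proteins with an exposed cysteine, read 4922, 4643 and 5097 units in knockout arrays, against 4314, 4065 and 3999 units in control arrays. It rose by 0.24 ± 0.05 (SE, limma adjusted p = 0.0436), and did not pass once any 1 array was left out (limma adjusted p = 0.0522 to 0.154) or controls 1 and 3 were averaged (0.111). Siah2, a ubiquitin ligase that targets EGLN enzymes, had a log2 difference of 0.61 ± 0.18 (limma adjusted p = 0.0879), and Mdm2, the ligase of p53, one of -0.35 ± 0.14 (limma adjusted p = 0.156). Ing4, a partner of PHD2, was at the floor in both groups.

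The third list held 20 other coactivators and CITED relatives, of which 17 were tested. Of these, 1 fell, 3 rose and 13 did not pass, with a median log2 difference of 0.0084. Limma thus called 23.5% of those tested, against 13.7% of all genes. The CITED relatives on the list were at the floor and left out with the dim probe sets, so none was tested. Ncoa1, the steroid receptor coactivator SRC-1, read 287, 231 and 288 units in knockout arrays, against 721, 679 and 648 units in control arrays. Its groups were far apart, it fell by 1.30 ± 0.10 on the log2 scale (SE, limma adjusted p = 0.00652), and it passed in all 22 alternatives, with controls 1 and 3 averaged among them (limma adjusted p = 0.0432). Its relative Ncoa3 did not pass (log2 difference -0.09 ± 0.05, limma adjusted p = 0.243). Ruvbl1 and Ruvbl2, ATPases of chromatin complexes that work as a pair, rose by 0.83 ± 0.14 and 0.77 ± 0.13. Smarca4, the BRG1 ATPase of SWI/SNF remodelling complexes, rose by 0.53 ± 0.07 (limma adjusted p = 0.0194). With the mean of its probe sets in place of the brightest, the Smarca4 difference was 0.43 and did not pass (limma adjusted p = 0.152). Without single arrays, Ruvbl1, Ruvbl2 and Smarca4 passed in 1, 2 and 3 of 6 cases, and with controls 1 and 3 averaged none of them passed (limma adjusted p = 0.105, adjusted p = 0.114 and adjusted p = 0.0847). Kat2a and Trrap, a histone acetyltransferase and the scaffold it shares with others, had log2 differences of 0.93 ± 0.28 and -0.31 ± 0.14 (limma adjusted p = 0.101 and adjusted p = 0.209).

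**Figure D4:**
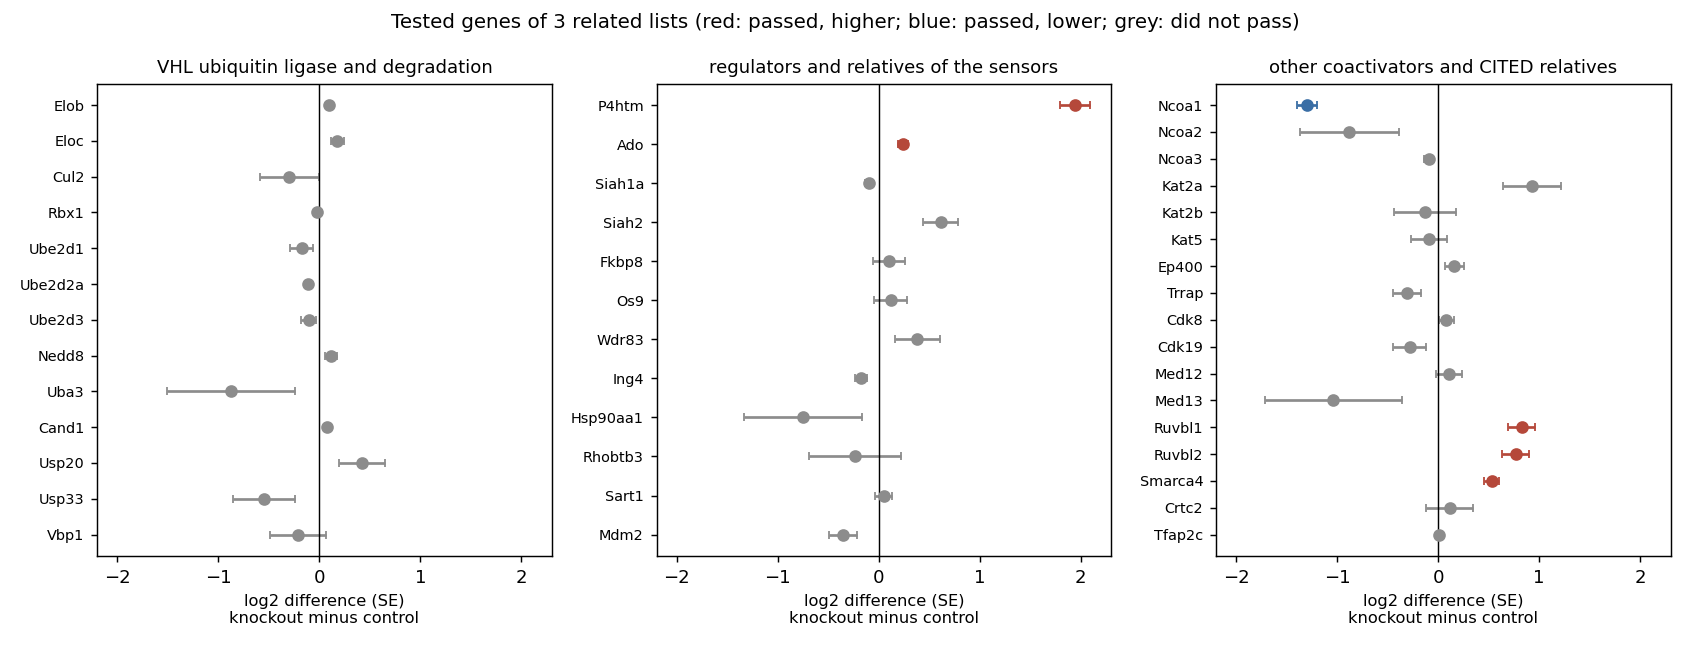
Log2 difference, knockout minus control, with its SE for the tested genes of the 3 related lists, red for genes that passed as higher, blue for those that passed as lower and grey for the rest. P4htm (1.94) and Ncoa1 (-1.30) have the largest differences among those that passed, and 0 of 13 genes passed in the VHL ligase list.

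The lower Ep300 and Cited2 signals stood beside lower endothelial markers (Pecam1, Tek, Tie1 and Erg among 10) and the lower Cd68 and Cd14 described above. The part of these markers in the result was not tested, and in bulk samples fewer cells of a type and less RNA per cell cannot be told apart. The spike-in level also differed in mean between the groups, and with it as a covariate the log2 difference was -0.22 for Ep300 and -0.33 for Cited2, neither past the threshold (limma adjusted p = 0.0682 and adjusted p = 0.0688). The ratio of the 3′ to the 5′ control probe set of actin, a sign of RNA length, was 1.42 to 1.49 in knockout arrays and 1.45 to 1.59 in control arrays, and its part was not tested.

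**Figure D5:**
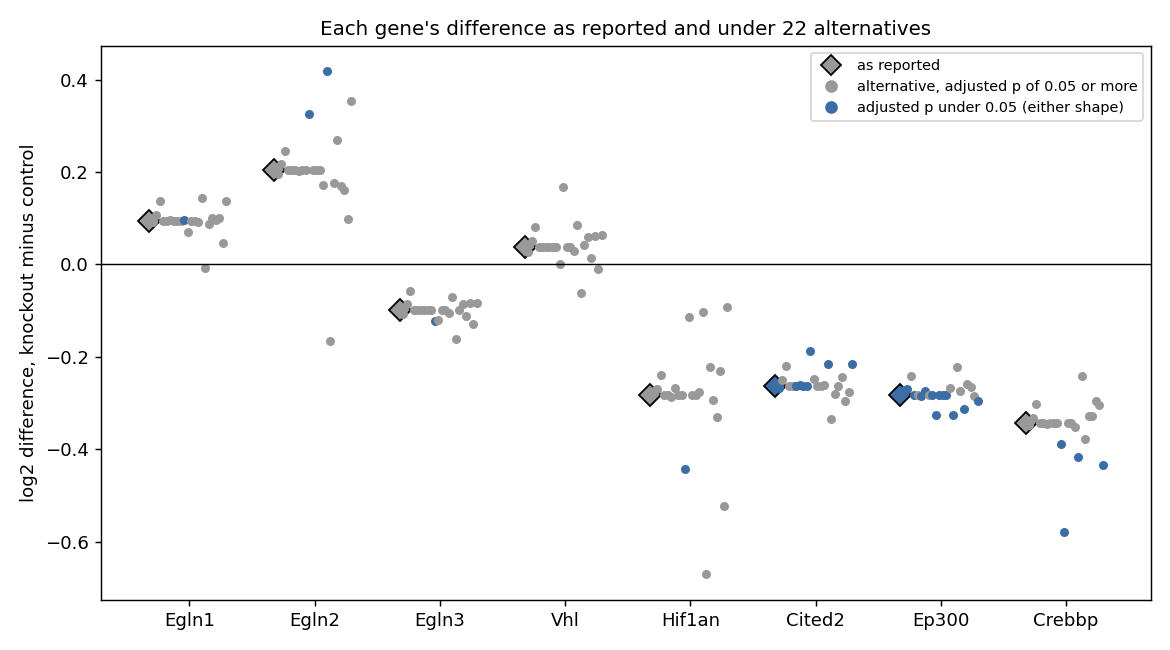
Log2 difference, knockout minus control, of each of the 8 genes as reported (diamond) and under the 22 alternatives (circles), blue where the adjusted p was under 0.05 and grey otherwise. Egln3, Hif1an, Cited2, Ep300 and Crebbp stay below 0 throughout, Cited2 passes in 8 of 22 alternatives and Ep300 in 13, and values of Egln1, Egln2 and Vhl cross 0. Alternatives that change only the filter, the eBayes settings, the adjustment over probe sets or the replicate block repeat the reported difference.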

How the data were processed

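Total RNA was amplified, labelled with biotin and hybridised, 1 array per sample, per the labels' protocols. The authors deposited linear-scale intensities, 1 for each probe set of each array. MAS5 and GCRMA are listed, with no version or role, per the submitters' processing notes. Quantiles were nearly equal between arrays, so no further normalization was applied. The choice still mattered at differences of this size. With median scaling the log2 difference was -0.24 for Ep300 and -0.22 for Cited2, and neither passed (limma adjusted p = 0.0872 and adjusted p = 0.174). Dim probe sets lie at a common floor, which compresses their differences, and the number of arrays limits the precision.

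Of 45101 probe sets, 64 were array controls, 34958 had 1 gene in the platform annotation, 932 had several and 9211 were not listed there. Values were taken as log2(intensity + 16), which understates dim genes' changes. Leaving out the dimmest 40% of probe sets by mean kept 27023, for 12279 genes, each represented by its brightest probe set. Groups were compared by two-sided limma fits (lmFit, then eBayes; limma 3.58.1, R 4.3.3), with Benjamini-Hochberg adjustment over all genes, or over all probe sets where stated, and a threshold of 0.05. The code was tested on simulated data. Intervals at 95% and SEs are limma's. A gene under 16 units in all arrays was taken to be at the floor.

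The named genes are the 8 members, Epas1, genes of the 3 pathway lists that passed and up to 3 others per list with the smallest p, and the 3 nearest profiles to each of the 2 members with the smallest p. Rbx1 is named because it was at the floor. Cell type markers were described as a check. Members, lists and tests were chosen with earlier results of these data known. Alternatives were 3 scalings, filters, pseudocounts, eBayes settings, array weights (gene-by-gene method, since the default estimate did not converge), probe set rules, the replicate block, averaged or omitted arrays and a spike-in covariate (mean of the bioB and bioC probe sets). Figures were drawn with matplotlib 3.10.9.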

Additional observations from a re-analysis of the deposited data

How the results depend on the processing

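Over the 8 genes and 22 alternatives (176 values), 140 kept their direction and their side of the threshold, 23 kept the direction but no longer passed, 9 newly passed and 4 changed sign. The filters, eBayes settings, adjustment over probe sets and replicate block left the difference of each of the 8 genes as it was. In those alternatives only the side of the threshold could change, so the count overstates how far direction was tried. The 4 were Egln1 (-0.0070), Egln2 (-0.16) and Vhl (-0.062) with the spike-in covariate and Vhl without knockout 2 (-0.0096 to 0.064 with each array left out). The number of the 8 genes that passed was 7 with array weights, 4 without control 2 and knockout 3, 1 with 75th percentile scaling, without a filter, with an intensity trend, with probe sets in place of genes or with the replicate block, and 0 with median scaling, the 60% filter, controls 1 and 3 averaged or the spike-in covariate. It was 0 without control 1, control 3, knockout 1 or knockout 2, 1 without control 2 and 3 without knockout 3. With the mean of probe sets it was 2, namely Ep300 and Crebbp. Genes called over the whole table numbered 1684 as reported, 893 without a filter, 7332 with array weights, 2993 with the replicate block, 193 with controls 1 and 3 averaged, 4631 without control 2 and knockout 3, and 206 to 3003 with each array left out. The weights gave knockout 1 and control 1 most of the influence (5.65 and 4.52). The share of higher genes among those called was 63.0% as reported, 40.4% with the spike-in covariate, 49.2% with controls 1 and 3 averaged and 45.6% to 67.1% with each array left out. Of the 9 other probe sets of the members, 5 passed with array weights, 2 with the replicate block or without control 2 and knockout 3, 0 with the spike-in covariate and 0 to 2 with each array left out. Those that changed sign were the second Egln1 probe set (-0.24 with the spike-in covariate, and -0.041 to 0.16 with each array left out), the dim Vhl one (-0.11 with the covariate) and the dim Hif1an one (0.10 with quantile scaling, 0.27 without control 2 and knockout 3, and -0.27 to 0.18 with each array left out). Epas1 turned to 0.017 with median scaling, 0.13 with the mean of probe sets, 0.013 with the covariate and 0.012 without knockout 1 (-0.061 to 0.012 with each array left out). In the VHL ligase, sensor and coactivator lists, 0 to 9, 1 to 8 and 1 to 9 genes passed over the alternatives, against 0, 2 and 4 as reported. The cause of these changes was not tested. The labels do not say that a replicate number is shared between the groups, so the replicate block is only an alternative. Deviations of same-numbered arrays correlated at -0.46, 0.84 and 0.80 over genes, and knockout 1 correlated best with control 2 (0.50). These deviations were centred within each group, and controls 1 and 3 were nearly alike. The correlations therefore cannot decide whether the numbers pair the arrays. The replicate block ended the call of Cited2 (limma adjusted p = 0.0753).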
